A study of Oryza sativa Japonica Group with 10 samples.

Results

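The rows described here are the loci that the rice gene annotation names as retrotransposon proteins or transposon proteins. They were taken as every row of the deposited count table whose description holds either phrase. The rule found 2638 of the 33486 rows (7.88%), of which 1863 were named retrotransposon and 775 transposon. They are called element rows in what follows.

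Polyadenylated RNA was sequenced from roots of rice cultivar Nipponbare, all grown as seedlings that moved at 12 days of age into nutrient solution with the whole plant in the light. Root tips, which held the meristem and the elongation zone, were separated from the remaining root, called mature root, on day 2 or day 6 after the transfer. On each day there were 3 tip and 2 mature root libraries, each a pool of 6 plants, so 10 libraries in all. The time in solution, the age of the plants and the occasion of sampling cannot be told apart, and p-values measure the spread between these pools.

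Retrotransposons copy themselves through an RNA intermediate and reverse transcriptase; the Ty1-copia and Ty3-gypsy types carry long terminal repeats, while LINE and SINE elements do not. DNA transposons, among them the CACTA (En/Spm), Mutator, Ac/Ds, Mariner and Pong groups, are moved by a transposase. Plants hold most of these elements silent through DNA methylation, histone methylation and small RNAs, and a locus with an element's name can also be an old fragment or a sequence that the host plant transcribes.

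Library totals ran from 986907 to 3286439 counts, and every mature root library of day 6 was deeper than every tip library. Tip day 2 replicate 1, the shallowest library, stood apart with 1231 element rows detected at a common depth against 588 to 806 in the other libraries. The tissue labels were compared with marker genes chosen by description. Of all tested rows, 3.18% were called higher in tip and 9.02% lower, with a median log2 fold change of 0.05. Of 60 tested cell division genes, 4 were higher and 3 lower in tip, with a median log2 fold change of 0.35. Of 30 tested suberin and Casparian strip genes, which mark the maturing root, 10 were lower in tip and none higher. Of 31 tested photosynthesis genes, 30 were lower in tip, and the photosynthesis rows summed to 99.3 to 253 CPM in tip versus 2851 to 7968 CPM in mature root, where CPM are counts scaled to a common library total. Of the 61 photosynthesis rows, 8 had no count in any tip library and 8 none in any mature root library. The part of these differing cell contents in the results below was not tested, and in whole tissue fewer cells of a type and less RNA per cell cannot be told apart.

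Most element rows were near the limit of detection. Only 468 (17.7%) passed the filter on low counts, against 19234 of the whole table (57.4%), and 1114 of the 2170 others had 1 count in all libraries together. Of the retrotransposon rows 251 (13.5%) passed, and of the transposon rows 217 (28%). The share that passed ran from 28 of 458 Ty3-gypsy rows to 12 of 27 Mutator rows and 6 of 9 SINE rows among the subclasses with at least 3 tested rows. The word "expressed" stood in the descriptions of 616 element rows, of which 351 (57.0%) passed, and was missing from 2022, of which 117 (5.79%) passed. The untested rows together held 1.44% to 4.81% of a library's element counts.

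The element rows took a larger part of all counts in tip than in mature root. Their share was 2.99%, 2.63% and 2.14% in the tip libraries of day 2 and 2.29%, 2.33% and 2.29% in those of day 6. It was 2.10% and 2.07% in mature root of day 2 and 1.84% and 1.93% in mature root of day 6. Every tip library lay above every mature root library. A few rows carried this total: the most abundant row of a library held 20.1% to 26.4% of the element counts in tip and 13.3% to 17.0% in mature root, and the top 10 rows held 47.1% to 56.6% and 35% to 40.0%.

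On the CPM scale, scaled by the trimmed mean of M-values (TMM), all element rows summed to 24961 ± 1984 CPM in tip (SD, n = 6) versus 19771 ± 2354 CPM in mature root (SD, n = 4), a ratio of 1.26. Retrotransposon rows summed to 17192 ± 2672 CPM and 12266 ± 1349 CPM, a ratio of 1.40, with overlapping libraries. Transposon rows summed to 7769 ± 1181 CPM and 7506 ± 1139 CPM, a ratio of 1.04. The larger part of the tip excess lay in a pair of retrotransposon rows. Without the 2 element rows of most counts, LOC_Os04g34170-ext and LOC_Os01g57960-ext, retrotransposon rows came to 9051 ± 1213 CPM in tip versus 8910.5 ± 1375 CPM in mature root, a ratio of 1.02. When every row with the ending -ext was left out, a mark that the sources used here do not explain, the log2 ratio of all element rows went from 0.34 to -0.12 and that of retrotransposon rows from 0.49 to -0.26, so the direction of these sums turned.

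**Figure D1:**
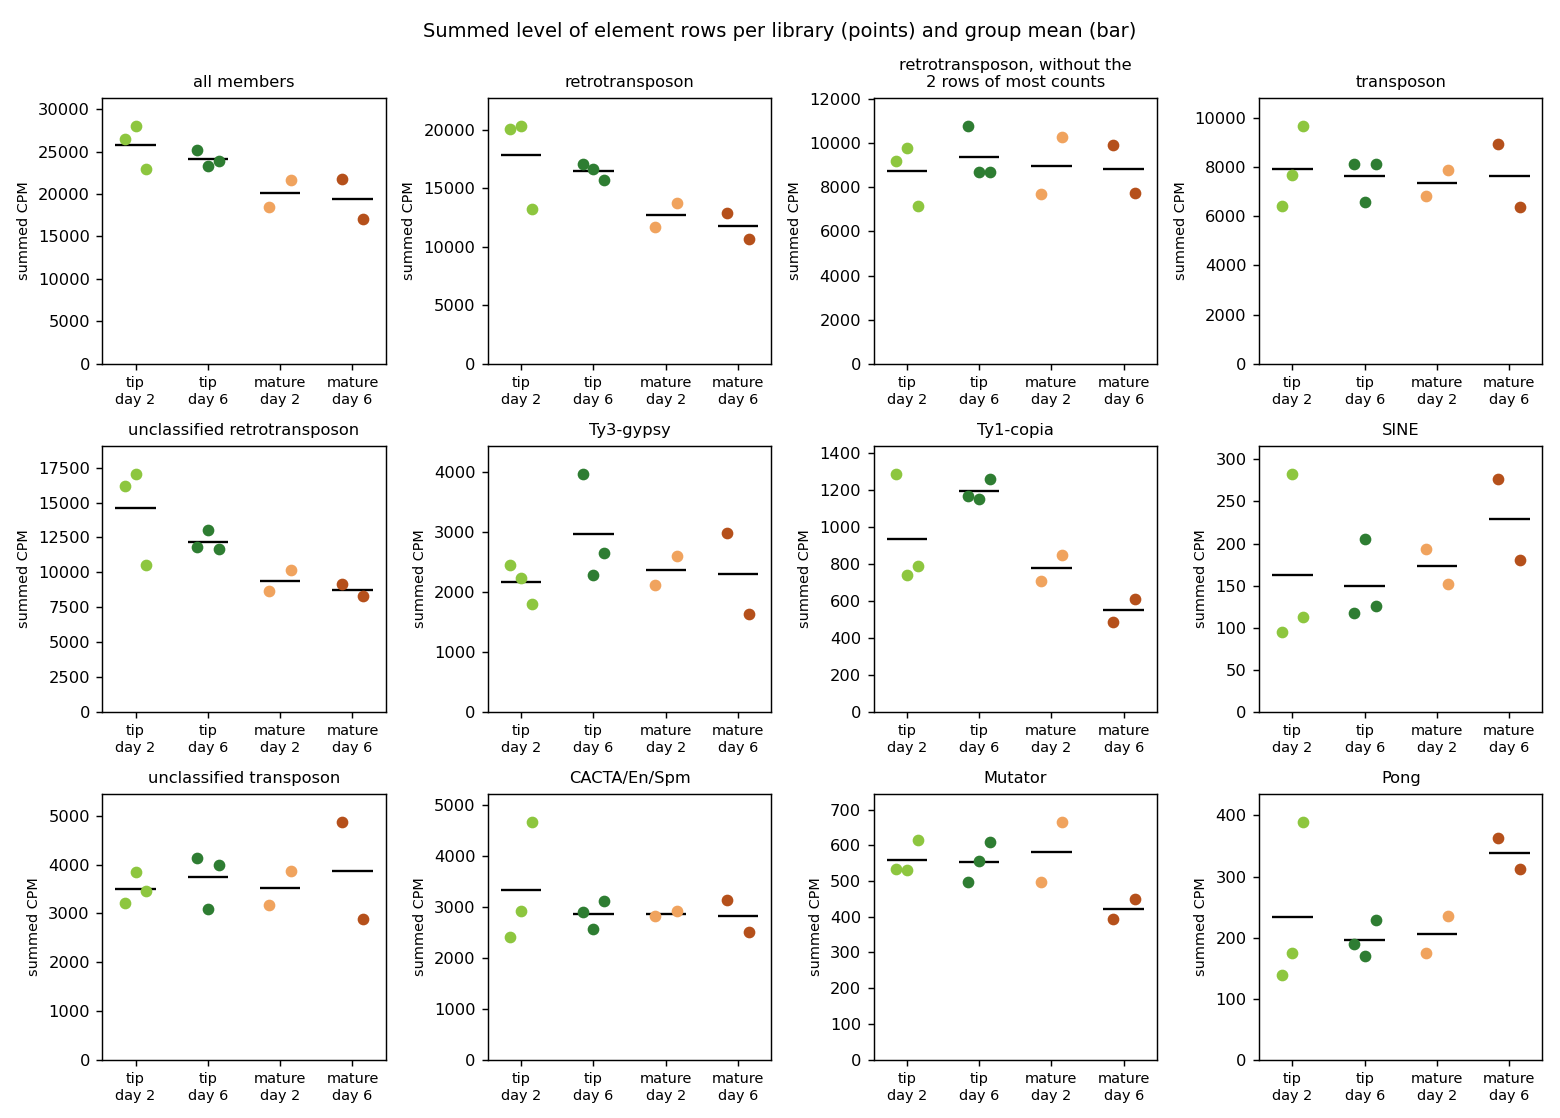
Summed level in CPM (vertical axes, each from 0) of element rows by class and subclass, for tip and mature root on day 2 and day 6; points are libraries and bars are group means. All element rows together and the unclassified retrotransposons sit higher in tip, and without the 2 rows of most counts the retrotransposon sum is 9051 CPM in tip versus 8910.5 CPM in mature root.

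By subclass, the unclassified retrotransposon rows were the largest group. Their sum was 13389 ± 2632 CPM in tip versus 9052 ± 816 CPM in mature root, and the libraries of the tissues did not overlap; without the same 2 rows it was 5248 ± 743 and 5697 ± 879 CPM. Ty1-copia rows summed to 1282, 737 and 786 CPM in tip of day 2, to 1166, 1149 and 1255 CPM in tip of day 6, to 707 and 847 CPM in mature root of day 2 and to 486 and 611 CPM in mature root of day 6. The tissues were apart on day 6 and overlapped on day 2. A single row, LOC_Os08g03520-ext, held 69.3% of the Ty1-copia counts.

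Over both days, the libraries of the tissues overlapped in each of the other subclasses. Ty3-gypsy rows summed to 2569 ± 739 CPM in tip versus 2339 ± 587 CPM in mature root, CACTA rows to 3092 ± 810 and 2849 ± 261 CPM, and Mutator rows to 557 ± 46.2 and 501 ± 117 CPM. On day 6 alone the Mutator sums were apart, at 497, 556 and 609 CPM in tip and 394 and 448 CPM for mature root, while on day 2 they overlapped. Unclassified transposon rows came to 3623 ± 426 CPM and 3699 ± 884 CPM, and SINE rows to 156 ± 72.8 CPM and 201 ± 53.5 CPM. The Ac/Ds sum, 264 ± 159 CPM in tip versus 172 ± 27.1 CPM in mature root, was almost all (96.8%) from the row LOC_Os05g34260, which had 125 to 525 CPM in tip, with the highest values in replicate 3 of day 2 and replicate 1 of day 6, and 131 to 204 CPM in mature root. Mariner rows reached at most 57.1 CPM and LINE rows at most 26.0 CPM.

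Pong rows, named for the element whose transposase moves the small mPing element in rice, summed to 215 ± 90.1 CPM in tip versus 272 ± 82.8 CPM in mature root, with the mature root libraries of day 6 at 363 and 313 CPM. Of the 12 tested Pong rows, 4 held nearly the same counts: LOC_Os06g21489-ext, LOC_Os02g33470-ext, LOC_Os09g18440-ext and LOC_Os06g21516-ext. Their totals were 114 or 115 counts, of which 79 or 80 fell in mature root day 6 replicate 1. The sources used here do not say how reads that match several copies were counted, so these rows are uncertain as separate loci. With the 4 rows taken once, the Pong sum was 211 ± 88.1 CPM in tip versus 241 ± 51.5 CPM in mature root. On day 6 alone the tissues were apart with these rows taken once, at 181, 168 and 220.02 CPM in tip and 257 and 298 CPM for mature root, while on day 2 they overlapped.

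Across the tested rows, the tissue contrast over both days called 6 element rows higher in tip (1.28% of 468) and 42 lower (8.97%), by the quasi-likelihood test of edgeR at a threshold of 0.05 after Benjamini-Hochberg adjustment across the 19234 tested rows. Of all rows tested, 3.18% were called higher and 9.02% lower. The share of element rows called lower was thus near that of the table. Tip lay above mature root in every library for 16 element rows and below it for 31, against 3.87% and 7.34% of all rows. The median log2 fold change (tip over mature root) was -0.01 in the element rows and 0.05 in all rows. Of the 48 called rows, 47 changed at least 2-fold, and 12 (3 higher and 9 lower) kept their call in each alternative fit, and with each library left out in turn, that gave them a value.

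**Figure D2:**
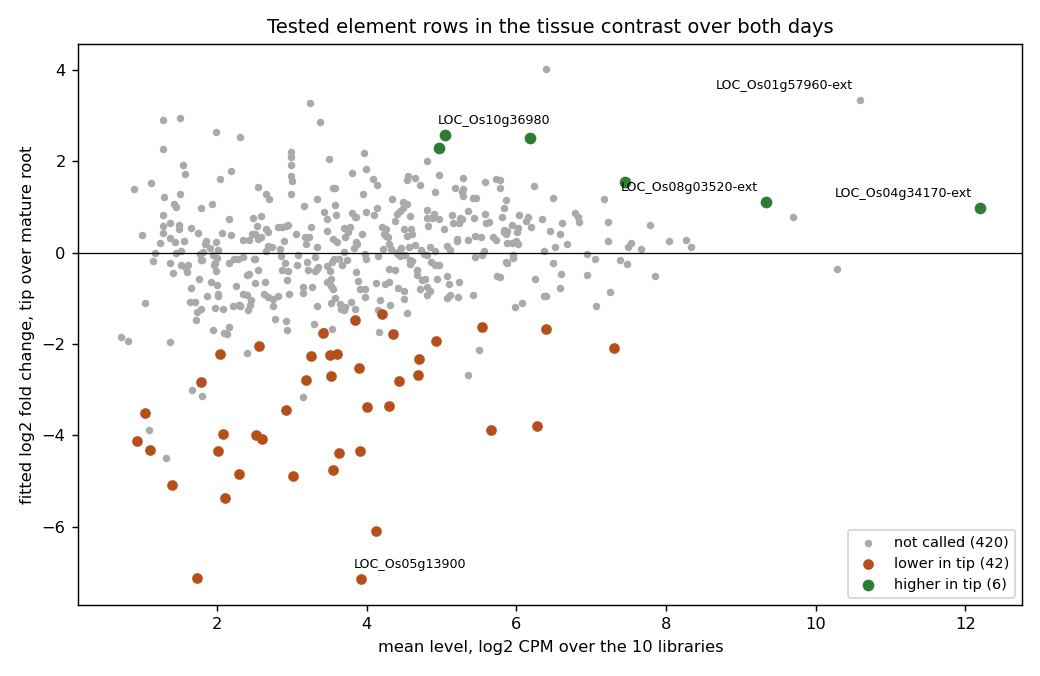
Fitted log2 fold change of tip over mature root (vertical axis) against mean log2 CPM over the 10 libraries (horizontal axis) for the 468 tested element rows. The 6 rows called higher lie at middle and high levels, while the 42 called lower are spread over low and middle levels.

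Calls came from most of the larger subclasses. Unclassified retrotransposon rows gave 3 higher and 24 lower of 192 tested, with a median log2 fold change of -0.04. Unclassified transposon rows gave 1 higher and 9 lower of 126, Ty3-gypsy rows 0 and 4 of 28, Ty1-copia rows 1 and 3 of 24, Mutator rows 1 and 1 of 12, and CACTA rows 0 and 1 of 65. The median was 0.01 for unclassified transposon, 0.50 for Ty3-gypsy, -0.15 for Ty1-copia, 0.14 for Mutator and -0.02 for CACTA rows. Of the Ty3-gypsy rows, 3 were higher and 1 lower in tip without overlap of libraries, so their median and these counts lay on the other side from their calls. No row was called among 12 Pong rows, with a median of -0.47, or 6 SINE rows, with a median of -0.87. With the 4 Pong rows of near-equal counts taken once, the Pong median was -0.033 over 9 rows. The counts that follow, from fits with 1 library left out, are given without the share of all rows called in the same fit. They therefore do not show whether the element rows or the whole table moved. Leaving out 1 library moved the number called higher between 3 and 9; it was 3 without replicate 1 or replicate 2 of mature root day 2, and 3 without mature root day 6 replicate 1. The number called lower ranged from 20 to 42; it was 20 without mature root day 2 replicate 2, 20 without mature root day 6 replicate 1 and 24 without mature root day 6 replicate 2.

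Rows higher in tip were led in level by LOC_Os04g34170-ext, an unclassified retrotransposon row on chromosome 4 with 3 exons and 3344 bases. It had 6044, 6724 and 6043 CPM in tip of day 2 and 6211, 4671 and 5275 CPM in tip of day 6. Mature root had 2702 and 3321 CPM on day 2 and 2899 and 2913 CPM on day 6. The lowest tip library was above the highest mature root library. The log2 fold change was 0.97 (SE 0.15, edgeR adjusted p = 2.47e-03), and the row was also called on day 2 and on day 6, though no element row was called on day 2 when only the libraries of that day were fitted. Per kilobase of row length it was the most abundant element row, at 1400 CPM per kb over all libraries.

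The Ty1-copia row LOC_Os08g03520-ext had 999, 546 and 602 CPM in tip of day 2 and 954, 909 and 900 CPM in tip of day 6. Mature root had 435 and 501 CPM on day 2 and 266 and 341 CPM on day 6. All tip libraries lay above all mature root libraries, by little on day 2. Its log2 fold change was 1.11 (SE 0.26, edgeR adjusted p = 0.0161) over both days and 1.60 on day 6 (edgeR adjusted p = 0.0263), and the call over both days was lost without mature root day 2 replicate 1, day 2 replicate 2 or day 6 replicate 1.

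For another pair of rows the tip levels of day 2 lay above those of day 6, and neither row was called in the time contrast of tip (edgeR adjusted p = 0.516 and 0.425). The unclassified transposon row LOC_Os10g36980 had 74.5, 64.5 and 62.6 CPM in tip of day 2, then 32.3, 33.6 and 32.3 CPM in tip of day 6, against 9.84 and 3.39 CPM in mature root of day 2 and 4.47 and 13.5 CPM of day 6. All tip libraries were above all mature root libraries (log2 fold change 2.58, SE 0.48, edgeR adjusted p = 5.66e-03). The unclassified retrotransposon row LOC_Os10g31670 had 153, 161 and 232 CPM in tip of day 2 and 46.2, 33.6 and 37.3 CPM of day 6, against 38.1, 7.74, 9.83 and 8.63 CPM in the mature root libraries. Here 1 mature root library of day 2 reached the tip levels of day 6, and the log2 fold change was 2.52 (edgeR adjusted p = 6.2e-03). Of its 2 nearest tested rows by identifier, both named as glycine-rich cell wall structural protein 2, LOC_Os10g31660 was called higher (log2 fold change 1.99) and LOC_Os10g31680-ext was not (log2 fold change 0.88, edgeR adjusted p = 0.0549).

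The last 2 rows called higher were less stable. The Mutator row LOC_Os01g64256 ranged from 16.6 to 132 CPM in tip, and in mature root from 5.32 to 13.7 CPM, without overlap and with a log2 fold change of 2.30 (edgeR adjusted p = 0.0381). LOC_Os10g31730-ext, an unclassified retrotransposon row, had 115 to 448 CPM in tip versus 52.1 to 139 CPM in mature root, with overlap and a log2 fold change of 1.55 (edgeR adjusted p = 0.0393). Their calls held in 3 and 2 of the 10 fits that left out a library; the first was lost without tip day 2 replicates 1 or 2, tip day 6 replicate 3 or any mature root library, and the second also without tip day 6 replicate 2.

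Many of the named rows lower in tip had few counts there. LOC_Os05g13900, an unclassified retrotransposon row, had 2 counts over the 6 tip libraries against 392 over the 4 mature root libraries. Mature root held 34.9 and 64.9 CPM on day 2 and 29.0 and 22.4 CPM on day 6, while 4 tip libraries had none. The ratio of mature root to tip was 183, with a 95% counting interval of 50.4 to 1518 that covers counting error only, and the edgeR adjusted p was 2.5e-04.

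The neighbouring identifiers LOC_Os07g40860 and LOC_Os07g40850, both unclassified retrotransposon rows, behaved alike. LOC_Os07g40860 had 0, 1.47, 0, 0, 0 and 1.80 CPM in the tip libraries, and 27.3, 38.7, 49.6 and 55.3 CPM in the mature root libraries. LOC_Os07g40850 had 0.391 to 1.80 CPM in tip versus 11.4, 40.7, 35.7 and 23.2 CPM in mature root. No library of either tissue overlapped with the other, and the log2 fold changes were -6.09 (SE 0.80, edgeR adjusted p = 8.28e-04) and -4.76 (SE 0.56, edgeR adjusted p = 5.46e-04).

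LOC_Os05g13940, singled out after its values were seen because its identifier is close to LOC_Os05g13900, was steady within each tissue. It had 8.98, 6.60 and 9.09 CPM in tip of day 2 and 7.70, 8.99 and 7.18 CPM of day 6, and 50.8, 51.8, 50.9 and 55.0 CPM in mature root. Its log2 fold change was -2.68. LOC_Os01g18080, the smallest p on day 6, had 3.91 to 17.6 CPM in tip libraries, 58.7 and 145 CPM in mature root of day 2 and 243 and 257 CPM of day 6. All its mature root libraries were above all tip libraries, with a log2 fold change of -3.79 (SE 0.44, edgeR adjusted p = 5.22e-04). The unclassified retrotransposon row LOC_Os03g61910 had no count in 4 tip libraries, 3.21 and 6.29 CPM in the other tip libraries and 29.5 to 43.6 CPM in mature root, without overlap (log2 fold change -4.34, edgeR adjusted p = 0.0107).

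**Figure D3:**
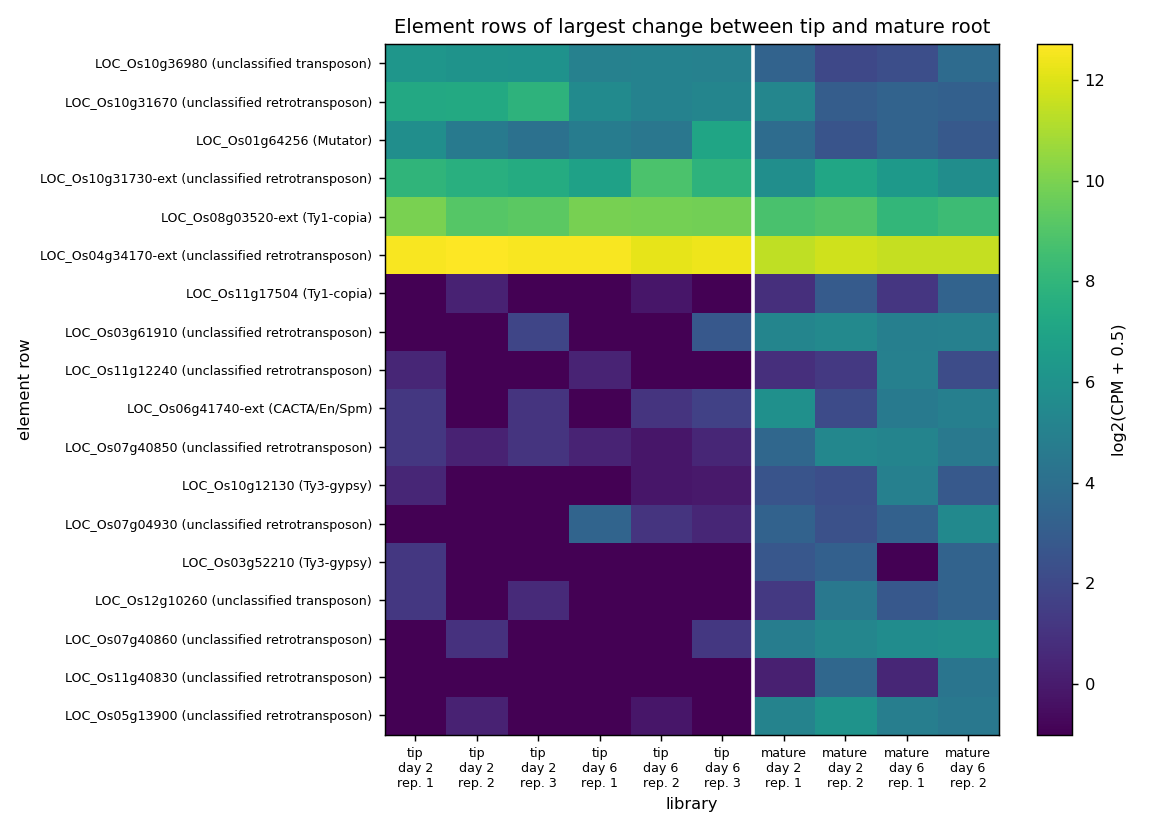
Level of the element rows with the largest called change in each direction, as log2(CPM + 0.5) by library, with tip libraries left of the white line and mature root libraries right of it. The 12 lower rows are at or near the bottom of the scale in most tip libraries, while LOC_Os04g34170-ext is high in all libraries.

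Among Ty3-gypsy rows, LOC_Os07g23640 had the smallest p. It had 2.69, 8.06 and 8.02 CPM in tip of day 2, 0.770, 2.35 and 2.25 CPM in tip of day 6, 7.94 and 31.5 CPM in mature root of day 2 and 97.4 and 35.1 CPM of day 6. The tissues met on day 2 and were apart on day 6; the log2 fold change was -3.35 over both days (SE 0.56, edgeR adjusted p = 3.43e-03). The Ty3-gypsy rows LOC_Os10g12130 and LOC_Os03g52210 had 3 and 2 counts in tip against 120 and 73 in mature root, ratios of 37.4 (95% counting interval 12.5 to 184) and 34.1 (9.11 to 287). The call of LOC_Os10g12130 was lost without mature root day 6 replicate 1, and that of LOC_Os03g52210 in each fit that left out tip day 2 replicate 2 or 3, tip day 6 replicate 2 or 3, either mature root library of day 2 or mature root day 6 replicate 2.

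Other rows of very low tip counts depended on single libraries. LOC_Os11g40830, an unclassified retrotransposon row, had 0 counts in tip and 102 in mature root, at least 31.8-fold lower in tip when tip as a group is set at a floor of 3 counts. Its mature root libraries were at 0.635, 11.6, 0.893 and 20.0 CPM, and the call was lost without day 2 replicate 2 or day 6 replicate 2 of mature root. The Ty1-copia row LOC_Os11g17504 had 2 counts in tip and 60 in mature root (ratio 28, 95% counting interval 7.43 to 237) and lost its call when the same libraries were left out. LOC_Os11g12240 had 2 against 93 counts (ratio 43.5, interval 11.7 to 364), and its call was lost without replicate 1 or replicate 2 of mature root day 2; in 3 of the 10 fits that left out a library it did not pass the filter.

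The remaining low rows named here had more counts in tip. The CACTA row LOC_Os06g41740-ext had 0 to 2.69 CPM in tip versus 58.4, 3.87, 23.7 and 30.2 CPM in mature root, with a call that was lost without mature root day 2 replicate 1. LOC_Os12g10260, an unclassified transposon row, had 0 to 1.80 CPM in tip versus 1.91, 22.3, 6.25 and 9.71 CPM in mature root, with a call that was lost without mature root day 2 replicate 2. LOC_Os07g04930 reached 10.01 CPM in a tip library and 4.84 to 44.8 CPM in mature root, so its tissues overlapped; its call was lost without mature root day 2 replicate 1 or day 6 replicate 2. The Mutator row LOC_Os11g05820 had 10.8 to 24.2 CPM in tip versus 21.6, 63.9, 47.3 and 87.1 CPM in mature root, with a log2 fold change of -1.94 that lost its call without day 2 replicate 2 or day 6 replicate 2 of mature root.

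Some called rows were close in identifier number. In 5 pairs both rows were called and lay within 100 identifier numbers on a chromosome, each pair in the same direction: LOC_Os05g13900 with LOC_Os05g13940, LOC_Os07g40850 with LOC_Os07g40860, LOC_Os11g17504 with LOC_Os11g17540, LOC_Os07g23640 with LOC_Os07g23660, and LOC_Os10g31670 with LOC_Os10g31730-ext. Each lower row was set beside its nearest tested rows outside the rule, which gave 74 pairings, some with the same neighbour. In 6 of the pairings (8.11%) the neighbour was called lower and in 2 higher, against 9.02% of all rows called lower. A single exon was found in 12 of the 42 rows called lower (28.6%) and in 4 of the 6 called higher (66.7%). Among the 468 tested element rows it was found in 51 (10.9%). The share among all called rows of the whole table is not given here. LOC_Os08g43110 and LOC_Os03g20080, both called lower, had totals of 155 and 163 counts, and the differences summed over libraries came to 2.52% of both rows' counts together, so these rows, too, are uncertain as separate loci.

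The second most abundant element row split the libraries in a way the groups do not follow. LOC_Os01g57960-ext, an unclassified retrotransposon row with 3 exons, had 4829, 3767 and 64.7 CPM in tip of day 2 and 114, 3335 and 1769 CPM in tip of day 6. Mature root had 1267 and 187 CPM on day 2 and 84.0 and 48.8 CPM on day 6. A tip library of each day lay at mature root levels and 1 mature root library lay near the tip levels, so the log2 fold change of 3.35 had an SE of 1.07 and was not called (edgeR adjusted p = 0.0594). Of the 19233 other tested rows, 49 correlated with it above 0.9 in log2 CPM over the 10 libraries of all 4 groups. None was an element row under the rule, but LOC_Os03g42530-ext, a centromere-specific retrotransposon row outside it, was among them (correlation 0.959). Of the 49, 21 had no description. A further 13 were described with an organelle or respiratory chain word, as a ribosomal protein or as an RNA polymerase beta subunit. A list of 8 rows named as genes of the mitochondrial genome, chosen after these values were seen, summed to 239, 163 and 5.35 CPM in tip of day 2 and 8.47, 143 and 80.8 CPM of day 6. In mature root that list summed to 70.8, 12.6, 0.893 and 2.16 CPM. Of its 8 rows, 6 were among the 49 correlated above 0.9, so the likeness of its sum to LOC_Os01g57960-ext is not independent of the choice. Its part in the level of LOC_Os01g57960-ext was not tested.

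**Figure D4:**
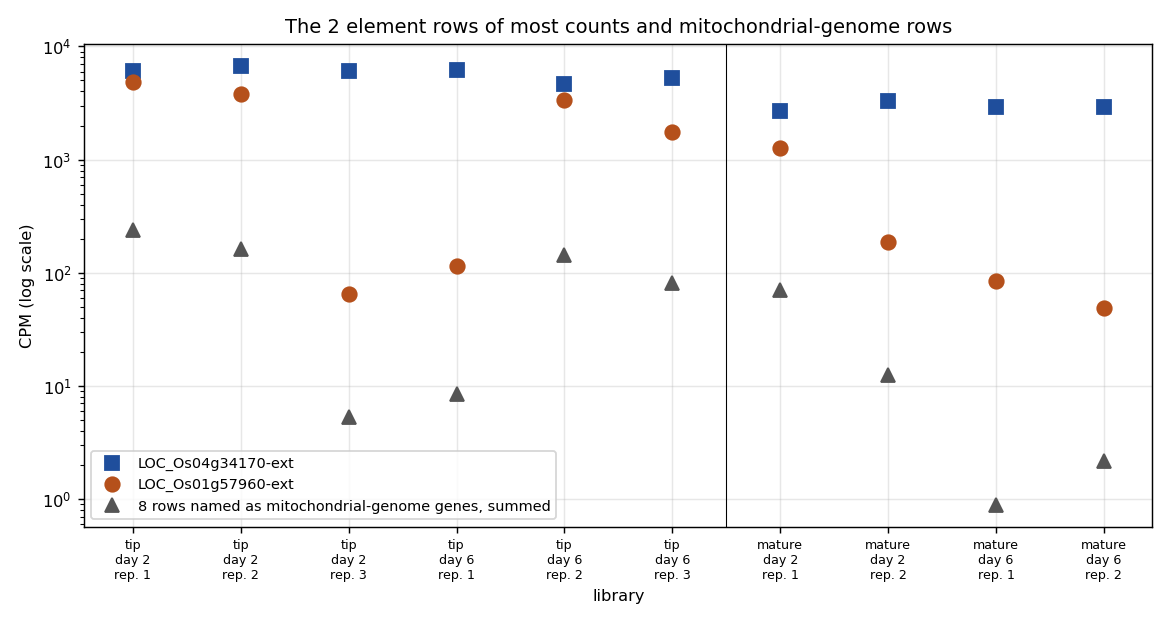
CPM per library (log axis) of the 2 element rows of most counts and of 8 rows named as mitochondrial-genome genes, summed; the vertical line parts tip from mature root. LOC_Os04g34170-ext is level within each tissue, while LOC_Os01g57960-ext runs from 48.8 to 4829 CPM and is high where the mitochondrial sum is high. Of the 8 rows, chosen after the values were seen, 6 correlate above 0.9 with LOC_Os01g57960-ext, so this likeness is not independent of the choice.

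The other abundant rows did not pass the test. The Ty3-gypsy row LOC_Os03g58470, with 52.0% of its subclass counts, had 973 to 1424 CPM in tip versus 1329, 1891, 1909 and 634 CPM in mature root, with a log2 fold change of -0.35 (SE 0.28). The Ty3-gypsy row LOC_Os07g40130-ext had 433 to 971 CPM in 5 tip libraries, 2352 CPM in tip day 6 replicate 1 and 413 to 706 CPM in mature root. The Mutator row LOC_Os12g12360, with 60.8% of the Mutator counts, had 248 to 412 CPM in tip versus 219 to 473 CPM in mature root.

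Of the rest, LOC_Os09g02250, an unclassified transposon row, had 236 to 392 CPM in tip versus 176, 181, 651 and 144 CPM in mature root. The CACTA row LOC_Os10g02630 had 186 to 374 CPM and 184 to 318 CPM, and LOC_Os07g39390-ext had 118 to 326 CPM and 210 to 354 CPM. In the SINE subclass the row of highest level and smallest p, LOC_Os05g04630-ext, had 49.4 to 82.1 CPM in tip versus 92.7, 65.3, 204 and 114 CPM in mature root (log2 fold change -0.94, edgeR adjusted p = 0.0928). The Pong row of highest level, LOC_Os12g12690-ext, had 27.0 to 145 CPM in tip versus 45.1 to 86.1 CPM in mature root. LOC_Os05g41940, a CACTA row named after its values were seen because it has the largest positive fold change of all tested element rows, had 721 CPM in tip day 2 replicate 3, 3.59 to 66.0 CPM in the other tip libraries and 2.42 to 9.44 CPM in mature root, and was not called (edgeR adjusted p = 0.0615).

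**Figure D5:**
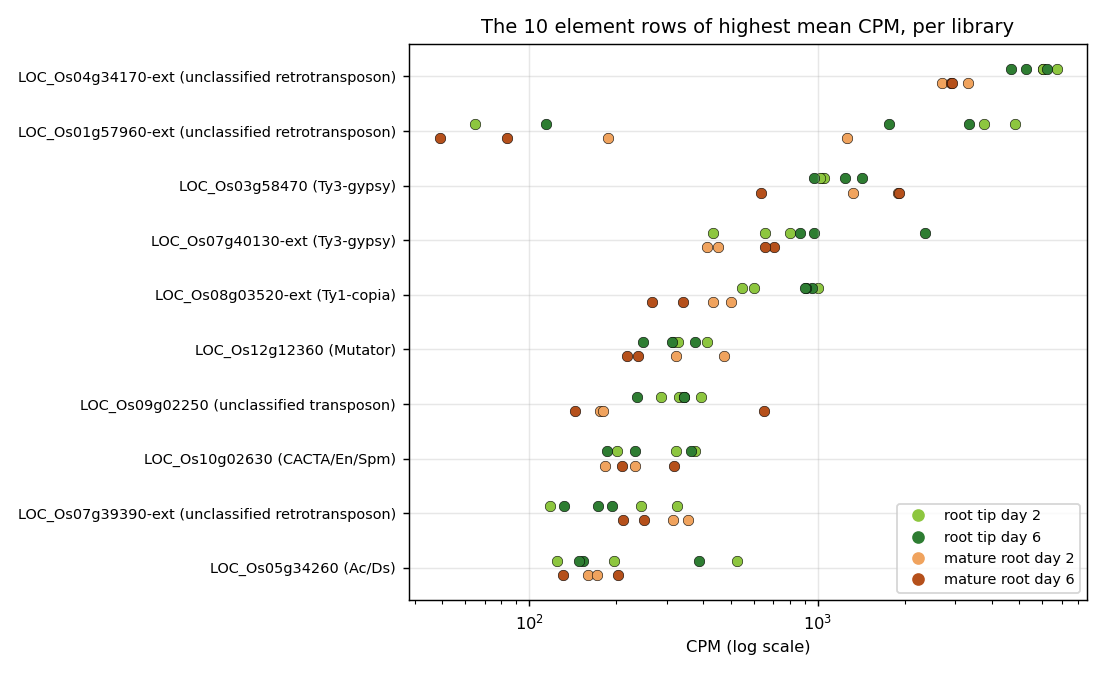
CPM per library (log axis) of the 10 element rows of highest mean level, coloured by tissue and day. LOC_Os04g34170-ext and LOC_Os08g03520-ext separate the tissues, LOC_Os01g57960-ext spreads widest and the other rows overlap.

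On single days fewer element rows were called. On day 2, 2 were higher in tip and 5 lower, against 0.0832% of all rows called higher and 1.07% lower. On day 6, 2 were higher and 20 lower, against 1.33% higher and 5.75% lower for all rows. When only the compared groups were fitted, 0 calls were left on day 2 and 11 on day 6. These counts, and those that follow with a library left out, lack the share of all rows called in the same fit. Whether the whole table lost calls alike is therefore not shown. The 7 calls of day 2 came down to 1 without any single tip library of day 2 or mature root library of day 6, and to 4 without mature root day 2 replicate 2. The 22 calls of day 6 came down to 4 without mature root day 6 replicate 1, to 11 without mature root day 6 replicate 2 and to 8 without tip day 6 replicate 2. Of the rows called on day 2 or day 6, LOC_Os11g19864 was the only one not called over both days; this Pong row had 0.391 to 4.62 CPM in tip libraries, 1.59 and 0.484 CPM in mature root of day 2 and 38.0 and 15.6 CPM of day 6 (log2 fold change on day 6 -3.35, edgeR adjusted p = 0.0478).

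Between day 2 and day 6 the edgeR test called 0 element rows in tip and 0 in mature root, and 0 for a change of the tissue contrast from day to day; in each of these contrasts 0% of all rows were called. At an unadjusted edgeR p under 0.05 there were 55, 49 and 40 element rows (11.8%, 10.5% and 8.55% of 468). Of all rows, 10.7%, 10.8% and 9.47% were under it, so the element shares were near those of the table. DESeq2 called 3, 13 and 1 element rows. These numbers and the next count are given here without the share of all rows. Without mature root day 6 replicate 2, 1 row was called in mature root. LOC_Os07g31400, an unclassified transposon row with the smallest p in tip (edgeR adjusted p = 0.425), had 5.39, 6.60 and 6.42 CPM in tip of day 2 and 20.8, 44.9 and 87.6 CPM of day 6, without overlap, against 4.47 to 11.1 CPM in mature root. The Ty1-copia row LOC_Os12g02670 had 32.3, 2.20 and 5.88 CPM in tip of day 2 and 0, 0.391 and 0 CPM of day 6.

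In mature root, LOC_Os04g22080-ext, an unclassified retrotransposon row with the smallest p there (edgeR adjusted p = 0.245), had 9.21 and 11.1 CPM on day 2 and 257 and 208 CPM on day 6, while tip stayed between 0 and 10.8 CPM. It was called lower in tip over both days (log2 fold change -3.87, edgeR adjusted p = 3.22e-03) and on day 6 (edgeR adjusted p = 7.64e-03). For a change of the tissue contrast from day to day, the CACTA row LOC_Os01g09220 had the smallest p. It had 54.8, 41.0 and 270 CPM in tip of day 2 and 40.6 and 6.78 CPM in mature root of day 2. On day 6 it had 73.1, 19.9 and 86.7 CPM in tip versus 441 and 289 CPM in mature root, above every tip library of that day. LOC_Os02g32670, an unclassified retrotransposon row, had 24.1 to 47.6 CPM in tip versus 36.2 and 56.6 CPM in mature root on day 2, and 29.2 to 70.0 CPM and 7.15 and 13.2 CPM on day 6. The difference between days missed the threshold for both rows (edgeR adjusted p = 0.513 for each).

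Genes of the pathways that silence such elements or remove DNA methylation, and host genes derived from transposases, showed no call between tissues. None was called in either direction among 6 tested DNA methylation genes (C-5 cytosine methylases), 6 DNA demethylation genes, 16 genes of small RNA silencing (argonaute, RNA-dependent RNA polymerase and related descriptions), 32 genes of histone methylation and heterochromatin, or 5 host genes of transposase origin. Of all tested rows, 3.18% were called higher and 9.02% lower. The median log2 fold changes of these lists were 0.03, 0.41, 0.52, 0.36 and 0.07, against 0.05 in all tested rows. A missing call does not show that a gene had the same level in both tissues. The smallest adjusted p among them belonged to LOC_Os04g39160-ext, an RNA-dependent RNA polymerase, an enzyme that makes the double-stranded precursors of small RNAs. It had 4.30 to 26.7 CPM in tip versus 72.7, 11.1, 59.8 and 22.4 CPM in mature root (log2 fold change -1.77, edgeR adjusted p = 0.0655). LOC_Os01g16870-ext, an argonaute, the protein class that small RNAs guide, had 67.3 to 270 CPM in tip versus 61.6, 43.6, 49.6 and 33.5 CPM in mature root (log2 fold change 1.33, edgeR adjusted p = 0.0805), and its tissues did not overlap. LOC_Os10g01570, a cytosine methylase, had 14.97 to 79.0 CPM in tip versus 9.38 to 33.4 CPM in mature root. LOC_Os01g59620, named as the histone H3 lysine-9 methyltransferase SUVH1, had 55.8 CPM in 1 mature root library and 0.898 to 5.86 CPM in all the others. A further 87 rows are described as centromere-specific retrotransposons and lie outside the rule. Of them 9 were tested, 1 was called higher (LOC_Os10g07160, log2 fold change 1.97) and 2 lower (LOC_Os07g39880, -1.73, and LOC_Os02g06550-ext, -5.45), and their sum was 397 ± 120 CPM in tip versus 296 ± 73.6 CPM in mature root.

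At a common depth of 986907 counts, the number of element rows with at least 1 count was 1231, 767 and 618 in tip of day 2, 588, 676 and 633 in tip of day 6, and 750, 654, 670 and 806 in mature root. Replicate 1 of tip day 2 stood apart. It had 200 Ty3-gypsy rows with a count, against 28 to 75 in the other libraries, and 797 rows without the word "expressed", against 213 to 374. With it the tip mean exceeded that of mature root by 32.2 rows, and without it the tip mean was lower by 63.6 rows. Of the rows outside the rule, 22599 were detected in that library, 20299 to 20865 in the other tip libraries and 21668 to 23538 in mature root, and without that library the tip mean was 20682 against 22573 in mature root. For element rows with at least 3 counts at this depth, tip libraries had 389 to 488 and mature root libraries 440 to 485.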

How the data were processed

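Values were raw whole-number counts for each annotated row and library, as the authors deposited them, per the file headers. Bowtie, SAMtools 0.1.12a, TopHat 1.3.1 and Cufflinks 1.0.3 are listed in the submitters' processing notes. The build, the counting tool, the use of strand and the treatment of reads with several matches are unknown from the sources used here. Element loci repeat in the genome, so these choices can move their counts, and reads of an antisense partner cannot be separated. No genome was used and no sequence is printed.

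All rows were fitted together in R 4.3.3 with edgeR 4.0.16: filterByExpr (minimum count 10, minimum total 15), TMM scaling and quasi-likelihood tests on a fit of 4 group means over the 10 libraries, without covariates. Adjusted p-values are Benjamini-Hochberg over 19234 rows, called at 0.05. CPM values are TMM-scaled, and standard errors come from the fitted fold change and the test statistic. For rows with 1 to 3 counts in a tissue a ratio of counts with an exact 95% interval is given in place of a fold change. Counts at a common depth were drawn at random for each row from a binomial distribution, so the deeper libraries reach 986907 counts only on average.

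Rows named are called rows with at least 2 CPM, up to 12 per direction by fold change, the 10 rows of highest mean, 2 rows per subclass of at least 3 tested rows, 2 rows of smallest p in the other contrasts and 2 genes per gene list. The members, the gene lists and the rule were chosen with earlier results of these data known. Alternatives were DESeq2 1.42.0, other scalings and filters, robust dispersion, thinned libraries, a replicate block, fits of the compared groups only and each library left out. Leaving out the 2 rows of most counts was chosen after the data were seen. Simulated counts were used to test the steps.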

Additional observations from a re-analysis of the deposited data

Results flagged for a closer look

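In 108 groups of 4 to 6 libraries, 20 had a library far from the rest. The cut-off gives about 1 in 20 by chance only for normally distributed values. These values were not transformed, the groups pooled both days and some items overlap, so the number that chance would give is not known. Each flagged library is given as its value against the range of the others.

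Tip day 2 replicate 1 had 1231 element rows with a count at the common depth (588 to 767 in the other tip libraries) and 488 with 3 counts (389 to 401). It also had the highest LOC_Os12g02670, at 32.3 CPM (0 to 5.88), and the single tip value above 0 of LOC_Os03g52210, at 1.80 CPM. Tip day 2 replicate 3 had the highest CACTA sum, 4658 CPM (2405 to 3119), the highest Pong sum, 389 CPM (138 to 228), and the highest LOC_Os12g12690-ext, 145 CPM (27.0 to 49.8), and LOC_Os01g09220, 269.5 CPM (19.9 to 86.7).

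In tip of day 6, replicate 1 had LOC_Os07g40130-ext at 2352 CPM (433 to 971), LOC_Os07g04930 at 10.01 CPM (0 to 1.56) and LOC_Os04g22080-ext at 10.8 CPM (0 to 3.59). Replicate 2 had a Mariner sum of 57.1 CPM (5.13 to 22.3). Replicate 3 had LOC_Os01g64256 at 132 CPM (16.6 to 54.8) and LOC_Os11g05820 at 24.2 CPM (10.8 to 12.8).

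In mature root, day 2 replicate 1 had LOC_Os10g31670 at 38.1 CPM (7.74 to 9.83) and LOC_Os01g57960-ext at 1267 CPM (48.8 to 187). Day 6 replicate 1 had LOC_Os10g12130 at 30.8 CPM (4.36 to 6.74), LOC_Os11g12240 at 31.3 CPM (1.27 to 4.05) and LOC_Os09g02250 at 651 CPM (144 to 181). Day 6 replicate 2 had LOC_Os07g04930 at 44.8 CPM (4.84 to 9.53).

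For LOC_Os01g09220 the tissues lay in opposite order on the days: the mean of tip minus mature root was 98.1 CPM on day 2 and -305 CPM on day 6, with every library of a tissue on the same side on each day. The edgeR test of that difference gave an adjusted p of 0.513.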

How the results depend on the processing

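Depth limits these results: most element rows had too few counts to test, so a missing call there says nothing about the locus. The counts of called element rows below are given without the share of all rows called in the same setting. They therefore do not show whether a setting moved the element rows or the whole table. Without the filter on low counts the numbers of called element rows were 31 higher and 66 lower over both days, 52 on day 2, 71 on day 6, 33 and 31 for time in tip and in mature root and 12 for the difference between days. The DESeq2 test gave 21 higher over both days, 22 on day 2, 51 on day 6, 3 and 13 for time and 1 for the difference. Fits of only the compared groups gave 0 on day 2 and 11 on day 6. With 1 library left out there were 3 to 9 higher and 20 to 42 lower over both days, 1 to 9 on day 2, 4 to 23 on day 6 and 0 to 1 for time in mature root; a lone mature root library was assumed to vary like the others. The log2 ratio of summed CPM went to -0.12 for all rows and -0.26 for retrotransposon rows without rows ending in -ext, and to 0.035 and 0.023 without the 2 rows of most counts, an alternative added after seeing the data. The causes were not tested beyond these settings' own construction.

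Some rows that were not called changed sign. Leaving out 1 library gave log2 fold changes of -0.65 to 0.13 for LOC_Os03g58470, -0.0070 to 0.28 for LOC_Os12g12360, -0.090 to 0.99 for LOC_Os09g02250, -0.65 to 0.067 for LOC_Os12g12690-ext, -0.19 to 1.54 for LOC_Os12g02670 and -0.82 to 0.77 for LOC_Os01g09220.

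Same-numbered libraries had correlations of -0.045 to 0.023 between their deviations from the group means. With 2 mature root libraries a day, the deviations within a group are exact opposites. Libraries of different numbers were not compared, so these values do not settle whether the pools were paired. With the replicate number as a block there were 4 higher and 22 lower over both days, 3 on day 2 and 14 on day 6, and LOC_Os10g02630 had a log2 fold change of -0.022.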
